A study of Homo sapiens with 6 samples.

Results

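The hypoxia-inducible factors (HIF), with the enzymes that tie their stability to oxygen, were examined in SK-Hep1 cells after knockdown of the long non-coding RNA *RAB30-DT*. The 10 members were taken by gene symbol, by a rule that uses no measured value but was proposed with earlier results of these data known, out of the 62700 genes in the expression tables. They comprise the alpha subunits *HIF1A*, *EPAS1* and *HIF3A*, the beta subunits *ARNT* and *ARNT2*, the ubiquitin ligase component *VHL*, the prolyl hydroxylases *EGLN1*, *EGLN2* and *EGLN3*, and the asparaginyl hydroxylase *HIF1AN*, also called FIH. SK-Hep1 is a cell line that the study uses beside hepatocellular carcinoma lines and describes as derived from endothelium. RNA–Seq was performed on 3 libraries of cells with a control shRNA (shControl, genotype label WT) and 3 libraries of cells with an shRNA against *RAB30-DT* (shRAB30-DT), here called control and knockdown cells. Per the methods, stable lines were made with pLKO.1 lentiviral vectors and puromycin selection, and cells were cultured in DMEM with fetal bovine serum in a CO2 incubator. The labels do not say which of the study's shRNA vectors was used, nor that the libraries of a group are separate cultures, so the p-values measure only the spread between these libraries.

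A HIF is a dimer of an oxygen-regulated alpha subunit and a constitutive beta subunit, which binds DNA at hypoxia response elements. In the presence of oxygen, EGLN enzymes hydroxylate prolines of the alpha subunit, VHL recognises the hydroxylated protein and the protein is degraded, while HIF1AN hydroxylates an asparagine and thereby blocks coactivator binding. This control acts mainly on protein, so mRNA levels do not measure HIF activity. *EGLN1* and *EGLN3* are themselves well-known HIF target genes, which gives the pathway a feedback loop. HIF signaling is known in liver cancer for its effects on glycolysis and angiogenesis.

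The values are TPM, a measure of transcript abundance that corrects for gene length and for library size, so that levels can be set side by side between genes. Where values are listed per library, they stand in the order of replicates 1, 2 and 3. The depth of the libraries is unknown. In all, 14020 genes had a mean of at least 1 TPM and were tested with limma on log2(TPM + 1). With a threshold of 0.05 on the p-value after Benjamini–Hochberg adjustment, 146 genes (1.04%) were called, 52 higher and 94 lower, and this split moved to 68 and 68 with median-of-ratios scaling and to 78 and 83 with quantile normalization. *RAB30-DT* was at 18.16, 11.51 and 13.91 TPM in the control libraries, against 11.94, 10.85 and 6.50 TPM in the knockdown libraries. The groups overlapped, since knockdown replicate 1 was above control replicate 2. Its log2 fold change was −0.55 (standard error 0.27, limma adjusted p = 0.355), so a lower level of the target was not shown at the threshold. When the dependence of each library on GC content was removed, *RAB30-DT* was lower in all knockdown libraries than in every control library. Its log2 fold change was then −0.56 and still not called (limma adjusted p = 0.107). Over 19 alternative fits, the log2 fold change of *RAB30-DT* ranged from −0.70 to −0.24 and did not pass the threshold in any. The paper reports a qPCR check of the knockdown in SK-Hep-1 cells. The groups are called knockdown and control as their labels give them. Of 8 hepatocyte markers, 7 were under 1 TPM in every library, *ALB* and *HNF4A* at 0 among them. The list summed to 18.1 to 24.3 TPM in control and 28.3 to 37.2 TPM in knockdown libraries, carried by *SERPINA1*. Of 8 endothelial markers, 7 were under 1 TPM in every library, with *KDR* at 0, and the sums were 2.39 to 6.19 and 5.14 to 7.48 TPM. Of 6 mesenchymal markers, 1 was under 1 TPM in every library, and the sums were 5320 to 5490 TPM in control and 5623 to 6073 TPM in knockdown libraries. *VIM* and *SPARC* carried these sums and went opposite ways without overlap of the groups. The means in control and knockdown cells were 3883 and 4615 TPM for *VIM* and 1497 and 1220 TPM for *SPARC*. The groups overlapped for the 3 other mesenchymal markers tested. The part of these marker levels in the results was not tested. Libraries of one group differed with the GC content of genes. Spearman's rho across genes between GC content and the centred log2 value was −0.62, 0.31 and 0.50 for the control libraries, against −0.54, 0.02 and 0.34 for the knockdown libraries.

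None of the tested members passed the threshold of the main limma fit. All 3 knockdown libraries still had more *EGLN1* and *HIF1AN* mRNA and less *ARNT* mRNA than every control library. *HIF1A* itself overlapped between the groups. In bulk RNA, fewer cells that express a gene and less of its RNA per cell cannot be told apart. Of the 10 members, 8 passed the filter on low values. None of the 8 was called in the limma fit, where 0.371% of all tested genes were called higher and 0.67% lower. At an unadjusted p under 0.05 there were 2 of the 8, *ARNT* and *EGLN1*, and 16.8% of all tested genes. The groups did not overlap for *EGLN1* and *HIF1AN*, both higher, where 9.89% of all tested genes were higher without overlap. They also did not overlap for *ARNT*, lower, where 13.4% of all tested genes were lower without overlap. The count of lower members, 1 of 8, was thus near the general share. Counts this small (2 and 1 of 8) were not tested against these shares. When the dependence of each library on GC content was removed (called the GC trend from here on), *EGLN1* was called higher and *ARNT* lower, and with this fit 4.36% of all tested genes were called higher and 5.55% lower. Over the 8 members the log2 fold changes had a median of 0.23, and over all tested genes it was −0.04.

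**Figure D1:**
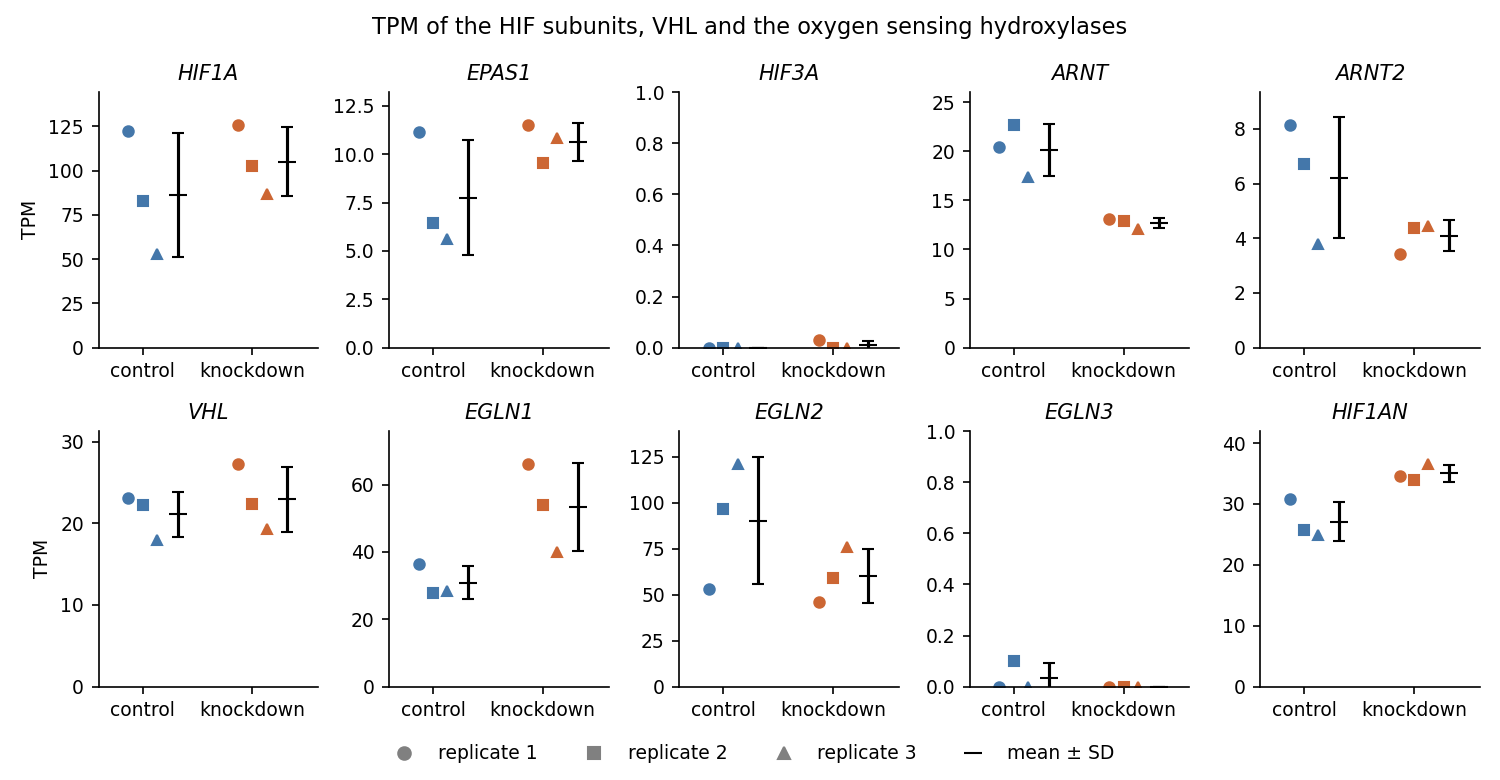
TPM of each of the 10 members (vertical axis) in control and knockdown libraries, with a point per library, a symbol per replicate number, and the mean ± SD (n = 3) beside the points. *ARNT* lay lower and *EGLN1* and *HIF1AN* lay higher in all 3 knockdown libraries, whereas *HIF3A* and *EGLN3* were at or near 0.

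**Figure D2:**
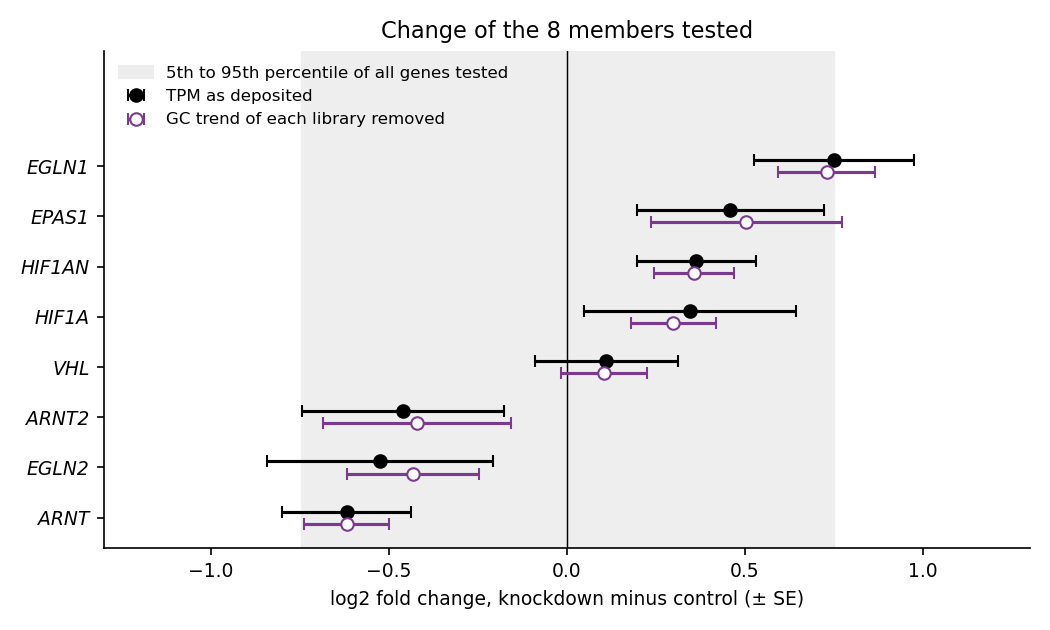
The log2 fold change (knockdown minus control, horizontal axis) ± SE of the 8 members tested, from TPM as deposited (filled) and with the GC trend of each library removed (open). The shaded band runs from −0.74 to 0.75, the 5th and the 95th percentile of all tested genes.

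*HIF1A* (ENSG00000100644.17, plus strand of chromosome 14 of hg38, 61695513 to 61748259) encodes the most widely expressed alpha subunit. It was at 122.52, 82.96 and 53.04 TPM in the control libraries, against 125.58, 102.67 and 86.78 TPM in the knockdown libraries. The spread within the control group was wider than the difference between the groups, and control replicate 1 was above knockdown replicates 2 and 3. The means were 86.2 ± 34.9 and 105 ± 19.5 TPM (SD, n = 3 each), and the log2 fold change was 0.35 (standard error 0.30, 95% confidence interval −0.34 to 1.03, limma adjusted p = 0.589). Leaving out control replicate 3 gave 0.04 and leaving out control replicate 1 gave 0.64, and the change did not pass the threshold in any of 19 alternative fits. With the GC trend removed, the *HIF1A* values of the knockdown libraries all lay above those of the control libraries on the log2 scale, with a log2 fold change of 0.30 that was still not called (limma adjusted p = 0.153, in a range of 0.128 to 0.943 over the alternatives). Of the genes that share exons with *HIF1A*, the antisense RNAs *HIF1A-AS1* and *HIF1A-AS3* reached at most 0.48 and 1.76 TPM, and ENSG00000258964, on the same strand, was at 8.26 and 6.07 TPM in knockdown replicates 1 and 2 and at most 1.14 TPM in the other libraries. Reads of a gene and its antisense partner cannot be told apart without strand, which the library protocol does not mention.

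*EPAS1* (ENSG00000116016.14, plus strand of chromosome 2, 46293667 to 46386697) encodes HIF-2 alpha, the alpha subunit best known from endothelium and from kidney cancer. It was at 11.15, 6.46 and 5.63 TPM in the control libraries, against 11.49, 9.55 and 10.85 TPM in the knockdown libraries. Control replicate 1 stood with the knockdown libraries, while the other two control libraries were below all of them. The log2 fold change was 0.46 (standard error 0.26, 95% confidence interval −0.14 to 1.06, limma adjusted p = 0.419). It was 0.72 without control replicate 1 and 0.29 without control replicate 3, the extremes of the fits that left out a library. *HIF3A*, an alpha subunit with splice forms that restrain the others, was listed at 0 in 5 libraries and at 0.03 TPM in knockdown replicate 1, so it was not tested.

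*ARNT* (ENSG00000143437.21, minus strand of chromosome 1, 150809713 to 150876708) encodes HIF-1 beta, the usual partner of the alpha subunits, which also serves the aryl hydrocarbon receptor. It was at 20.43, 22.63 and 17.33 TPM in the control libraries, against 13.09, 12.91 and 12.08 TPM in the knockdown libraries. The groups did not overlap, with knockdown libraries lower and close together. The means were 20.1 ± 2.66 and 12.7 ± 0.539 TPM (SD, n = 3 each), with a log2 fold change of −0.62 (standard error 0.18, 95% confidence interval −1.03 to −0.20). It was not called (limma adjusted p = 0.149), and the exact permutation test (two-sided, on TPM) gave p = 0.1, the smallest p possible with 3 libraries against 3. With the GC trend removed, *ARNT* had the same log2 fold change and was called (limma adjusted p = 0.0243, in a range of 0.00558 to 0.446 over the alternatives). The log2 fold change stayed between −0.73 and −0.50 under every alternative. *ARNT2* (ENSG00000172379.22, plus strand of chromosome 15, 80404350 to 80597933), a beta subunit best known from neurons and kidney, was at 8.13, 6.73 and 3.8 TPM in the control libraries, against 3.44, 4.38 and 4.45 TPM in the knockdown libraries. Its groups overlapped through control replicate 3, and its log2 fold change was −0.46 (standard error 0.28, limma adjusted p = 0.456).

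*VHL* (ENSG00000134086.9, plus strand of chromosome 3, 10141778 to 10153667), the substrate receptor that binds hydroxylated alpha subunits, was at 23.09, 22.28 and 17.94 TPM in the control libraries, against 27.22, 22.32 and 19.32 TPM in the knockdown libraries. The groups overlapped. The log2 fold change was 0.11 (standard error 0.20, 95% confidence interval −0.35 to 0.57, limma adjusted p = 0.821), and its sign changed without knockdown replicate 1 (−0.014).

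*EGLN1* (ENSG00000135766.9, minus strand of chromosome 1, 231363751 to 231422287) encodes PHD2, the main prolyl hydroxylase of HIF-1 alpha. It was at 36.47, 27.91 and 28.29 TPM in the control libraries, against 66.00, 53.81 and 40.12 TPM in the knockdown libraries. The groups did not overlap, knockdown libraries being higher, with knockdown replicate 3 the nearest to the controls. The means were 30.9 ± 4.84 and 53.3 ± 12.9 TPM (SD, n = 3 each), and the log2 fold change was 0.75 (standard error 0.22, 95% confidence interval 0.24 to 1.26), the largest in size among the 8 members tested. It was not called in the main fit (limma adjusted p = 0.152), and the exact two-sided permutation test gave p = 0.1. It was called with the GC trend removed, at a log2 fold change of 0.73 (limma adjusted p = 0.0229, in a range of 0.0067 to 0.448 over the alternatives), and with a replicate block (limma adjusted p = 0.0393). Leaving out 1 library gave values from 0.58 without knockdown replicate 1 to 0.94 without knockdown replicate 3. An overlapping same-strand gene, ENSG00000287856, was listed at 0 throughout.

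*EGLN2* (ENSG00000269858.6, plus strand of chromosome 19, 40798996 to 40808434), which encodes PHD1, was at 53.01, 96.74 and 120.78 TPM in the control libraries, against 45.99, 58.89 and 75.65 TPM in the knockdown libraries. The control libraries spanned more than a doubling, and control replicate 1 was below knockdown replicates 2 and 3. The log2 fold change was −0.53 (standard error 0.32, 95% confidence interval −1.25 to 0.20, limma adjusted p = 0.444). It was −0.86 without control replicate 1 and −0.28 without control replicate 3. The readthrough gene *RAB4B-EGLN2* shares its exons and was at most 2.23 TPM, and adding it to *EGLN2* did not change the call. *EGLN3*, which encodes PHD3, was listed at 0 in 5 libraries and at 0.1 TPM in control replicate 2, and was not tested. None of 12 commonly expressed genes was at 0 in any library.

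The upstream sequences of *EGLN1* and *EGLN2* are shown because the log2 fold changes of these hydroxylases differ in sign while both carry the core letters of a hypoxia response element. Neither change was called in the main limma fit and the groups overlapped for *EGLN2*, so a difference in response was not shown. *EGLN2* has 2 RefSeq start sites in the table, and the upstream one is shown, since the other holds no such letters in its promoter. The 120 bases before the start site are given 5′ to 3′ on the gene's strand, from chr1:231422288-231422407 (minus strand) and chr19:40799071-40799190 (plus strand) of GRCh38.p14. The letters to search were chosen after the values were seen. Capitals mark ACGTG on either strand, and in *EGLN2* a match on each strand overlaps to give a palindrome.
*EGLN1*: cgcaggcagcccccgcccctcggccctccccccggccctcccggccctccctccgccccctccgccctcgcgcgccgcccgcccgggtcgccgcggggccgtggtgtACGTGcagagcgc
*EGLN2*: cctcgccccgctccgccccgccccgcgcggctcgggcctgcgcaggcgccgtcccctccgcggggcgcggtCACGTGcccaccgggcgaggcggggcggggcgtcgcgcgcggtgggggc

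The *EGLN1* match lies 13 to 9 bases before the start, and the *EGLN2* matches lie 49 to 44 bases before it. Within 250 bases upstream, ACGTG on either strand was found in 6501 of 35116 RefSeq promoters (18.5%). The 8 members with an entry have 12 promoters, and 2 of these 12 held it, 1 of *EGLN1* and 1 of *EGLN2*. GCGTG, the other common core, was found in 32.2% of all promoters, and among the members in 1 of 2 promoters of *HIF1A*, 1 of 3 of *HIF3A* and the promoter of *EPAS1*. Of the 12 member promoters listed, 5 held either set of letters, against 43.2% of all promoters, so the members were near the general share. A match describes these letters only and is not evidence of binding.

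*HIF1AN* (ENSG00000166135.14, plus strand of chromosome 10, 100529072 to 100559998), the asparaginyl hydroxylase that limits coactivator binding, was at 30.83, 25.65 and 24.83 TPM in the control libraries, against 34.57, 33.95 and 36.50 TPM in the knockdown libraries. The groups did not overlap, and the knockdown libraries were higher by a small margin over control replicate 1. The means were 27.1 ± 3.25 and 35.0 ± 1.33 TPM (SD, n = 3 each), and the log2 fold change of 0.36 (standard error 0.17, 95% confidence interval −0.02 to 0.75) was not called (limma adjusted p = 0.324). The exact two-sided permutation test again gave p = 0.1. With the GC trend removed it was 0.36 and again not called (limma adjusted p = 0.0867, in a range of 0.0348 to 0.614 over the alternatives). *NDUFB8*, a respiratory chain gene on the opposite strand at 204 to 284 TPM, shares exon sequence with *HIF1AN*, so the level of *HIF1AN* is uncertain.

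The members stood in a similar order of level in both groups. In control cells, *EGLN2* and *HIF1A* were highest, at means of 90.2 and 86.2 TPM that differed by less than their spread. *EGLN1* and *HIF1AN* followed at 30.9 and 27.1 TPM with overlapping libraries, then *VHL* and *ARNT* at 21.1 and 20.1 TPM, which also overlapped. *EPAS1* and *ARNT2* were the lowest tested members, at 7.75 and 6.22 TPM, and overlapped too. In knockdown cells, *HIF1A* (105 TPM) was above *EGLN2* (60.2 TPM) in every library. It was also above *EGLN2* in control replicate 1 and below it in control replicates 2 and 3, so this order does not separate the groups. *EGLN1* (53.3 TPM) overlapped with *EGLN2* in knockdown cells, and the libraries of the other neighbours in the order did not overlap. *HIF1A* exceeded *EPAS1* by 9.42 to 12.8 times in control and 8.0 to 10.9 times in knockdown libraries, so *EPAS1* made up 7.22% to 9.60% and 8.38% to 11.1% of the alpha subunit TPM.

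The ratio of alpha to beta subunit mRNA, a measure chosen after the values were seen and given without a test, did not overlap between the groups. Summed alpha over summed beta TPM was 4.68, 3.05 and 2.78 in the control libraries, against 8.29, 6.49 and 5.91 in the knockdown libraries. It fell from replicate 1 to replicate 3 in both groups, and it was not computed with the GC trend removed. No share over all genes stands beside this ratio. The means of this ratio were 3.50 ± 1.03 and 6.90 ± 1.24 (SD, n = 3 each). Its denominator was lower in knockdown cells, as *ARNT* and *ARNT2* together summed to between 21.1 and 29.4 TPM in control and between 16.5 and 17.3 TPM in knockdown libraries, whereas the alpha sums overlapped, at 58.7 to 134 and 97.6 to 137 TPM. *EGLN1* was 40.8%, 22.4% and 19.0% of all EGLN TPM in the control libraries, against 58.9%, 47.7% and 34.7% in the knockdown libraries. The *EGLN1* share of control replicate 1 was above that of knockdown replicate 3. The total of EGLN TPM spanned 89.5 to 149 in control and 112 to 116 in knockdown libraries, so the groups overlapped.

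**Figure D3:**
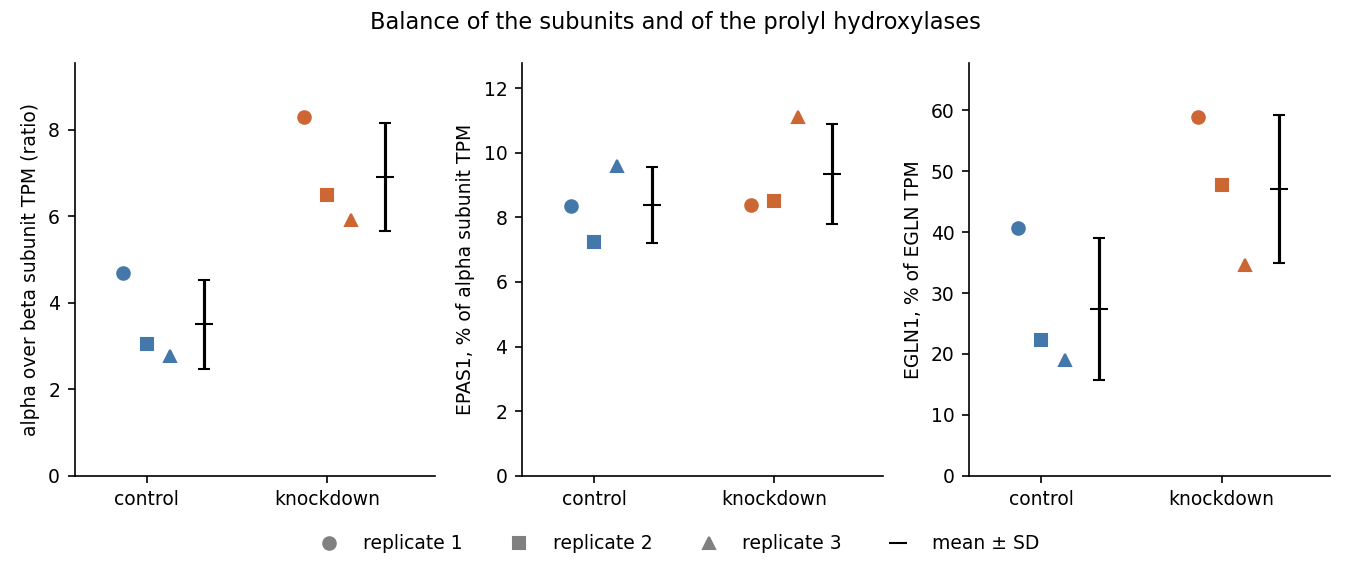
The ratio of summed alpha (*HIF1A*, *EPAS1*, *HIF3A*) to summed beta (*ARNT*, *ARNT2*) TPM, the share of *EPAS1* in alpha subunit TPM and the share of *EGLN1* in EGLN TPM, by library with mean ± SD (n = 3). The ratio was 5.91 or higher in all 3 knockdown libraries and 4.68 or lower in all 3 control libraries, while both shares overlapped between groups.

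The spread of *HIF1A* and *EGLN2* within a group moved with GC content. Their annotated transcripts have a GC content of 38.9% and 60.8%, the lowest and the highest of the 8 tested members. Control replicate 1 was above control replicate 3 by 1.19 on the log2 scale for *HIF1A* and below it by 1.17 for *EGLN2* (difference −1.17), whereas the median difference of genes within 2 percentage points of GC content was 0.81 and −0.51. Between knockdown replicates 1 and 3, the log2 differences were 0.53 for *HIF1A* and −0.71 for *EGLN2*, and the medians of their GC neighbours were 0.47 and −0.33. *ARNT*, *VHL* and *HIF1AN*, at 46.8% to 48.0% GC, differed between these control libraries by 0.23, 0.35 and 0.30, where their neighbours had 0.23, 0.33 and 0.31. *EPAS1* and *ARNT2* did not follow this pattern in control cells, with differences of 0.87 and 0.93 where their neighbours had −0.13 and −0.05. *EGLN1*, at 41.6% GC, differed by 0.36 in control and 0.70 in knockdown cells, where its neighbours had 0.64 and 0.38. Removing the GC trend lowered the SD of log2 values in control cells from 0.60 to 0.20 for *HIF1A* and from 0.61 to 0.33 for *EGLN2*, and raised it from 0.46 to 0.54 for *EPAS1*. The part of GC content in the differences between the groups was not tested beyond the fit with the trend removed.

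**Figure D4:**
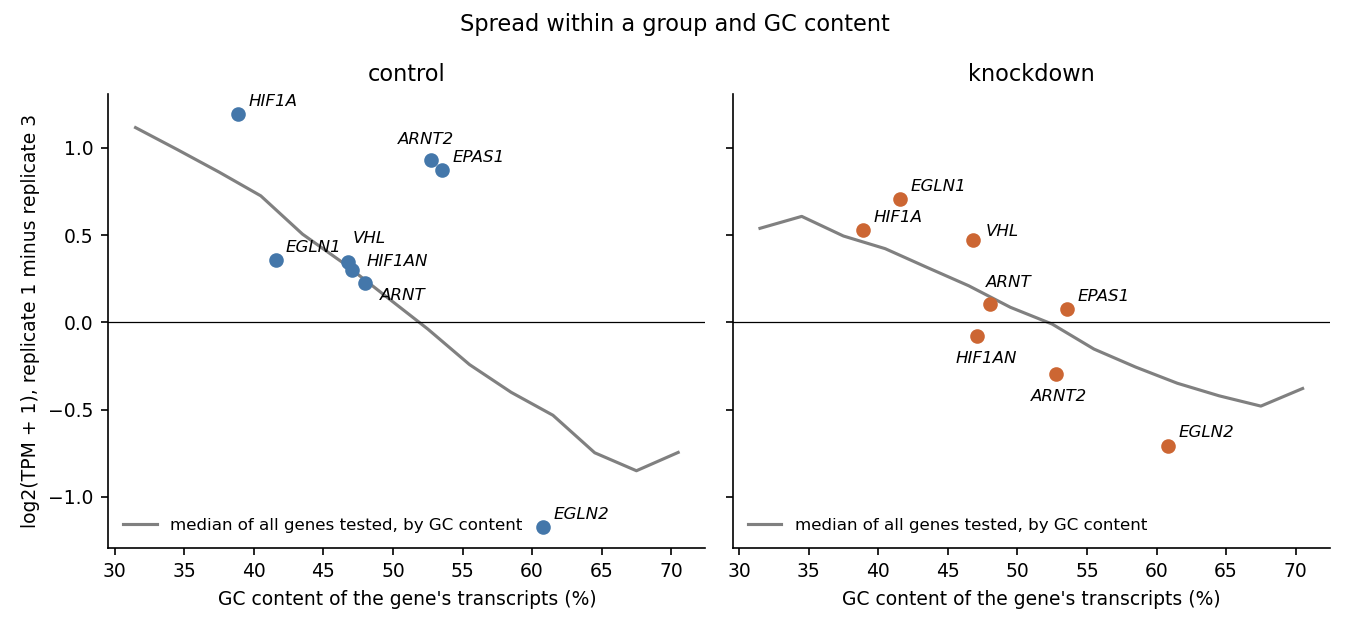
The difference in log2(TPM + 1) between replicates 1 and 3 (vertical axis) against the GC content of the gene's transcripts (horizontal axis), for control cells on the left and knockdown cells on the right. The grey line is the median of all tested genes by GC content and points are the 8 tested members. *HIF1A* and *EGLN2* sit at opposite ends, and *EPAS1* and *ARNT2* lie 0.87 and 0.93 above 0 in control cells where the line is near 0.

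Genes that act beside the members in the pathway were described by lists, written with earlier results of these data known. Of 17 partners of the VHL ligase and of HIF degradation, 17 were tested and none was called in the limma fit (2 at an unadjusted p under 0.05, against 16.8% of all tested genes), 5 were positive and 12 negative, and the median log2 fold change was −0.23. Of these, *CUL2*, the scaffold of the ligase, and *UBE2M*, the conjugating enzyme for NEDD8, were called lower with the GC trend removed, and are named here after their values were seen. *CUL2* was at 37.51, 25.41 and 21.62 TPM in the control libraries, against 23.49, 18.53 and 17.16 TPM in the knockdown libraries, so the groups overlapped. The groups did not overlap for 3 of the 17, all lower, where 13.4% of all tested genes were lower without overlap. Further genes of these lists, also chosen after their values were seen, did not pass the threshold. The adaptors *ELOB* and *ELOC* had log2 fold changes of −0.15 and −0.23 and *RBX1* −0.29. Of 16 HIF cofactors and chaperones none was called in the limma fit (3 at an unadjusted p under 0.05, against 16.8% of all tested genes), and with the GC trend removed *HSP90AA1*, a chaperone of HIF-1 alpha, and the ATPase *RUVBL1* were called lower, also named after their values were seen. *RUVBL1* was at 126.16, 127.76 and 131.44 TPM in control and at 69.21, 82.07 and 84.26 TPM in the knockdown libraries, and *HSP90AA1* had means of 642 ± 138 and 406 ± 65.6 TPM (SD, n = 3 each). The groups overlapped for neither of them. Over the list, 1 gene was higher and 3 were lower without overlap, against 9.89% and 13.4% of all tested genes, and the median log2 fold change was −0.07. The coactivators *EP300* and *CREBBP* had log2 fold changes of −0.11 and −0.35.

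Of 11 other bHLH-PAS factors, several of which can share or compete for *ARNT*, 8 were tested and none was called in the limma fit (1 at an unadjusted p under 0.05, against 16.8% of all tested genes), with a median log2 fold change of −0.27. That gene, *BMAL2*, a circadian factor, had means of 40.1 ± 10.9 and 25.2 ± 5.33 TPM (SD, n = 3 each) with overlapping groups, and was called lower with the GC trend removed. *AHR*, the aryl hydrocarbon receptor, also chosen after its value was seen, had a log2 fold change of −0.39. Of 17 enzymes that make or use 2-oxoglutarate, succinate or fumarate, metabolites that serve or inhibit the hydroxylases, none was called in the limma fit (0 at an unadjusted p under 0.05, against 16.8%), the groups overlapped for all 17, and the median log2 fold change was −0.09. *D2HGDH*, which clears D-2-hydroxyglutarate, was the only one called with the GC trend removed, higher, with a log2 fold change of 0.49 as deposited. *SDHB* and *FH*, a subunit of succinate dehydrogenase and fumarate hydratase, had −0.26 and −0.31. *D2HGDH*, *SDHB* and *FH* were chosen after their values were seen.

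Many HIF target genes were higher in knockdown cells, a pattern already known from earlier results of these data and so not independent support. Of 42 listed genes, without *EGLN1* and *EGLN3*, 38 were tested. Of these, 32 were positive and 6 negative, and their median was 0.81 on the log2 scale, where all tested genes had −0.04. Of the 38, 11 were called, all higher, against 0.371% of all tested genes called higher, and 23 had knockdown libraries all above the control libraries, against 9.89%. With the GC trend removed, 20 were called, all higher, against 4.36%. The 8 with the largest changes among those called as deposited and without overlap of the groups were *PFKFB4* (log2 fold change 2.46), a regulator of glycolysis, the mitophagy receptor *BNIP3* (2.04), the collagen prolyl hydroxylase *P4HA1* (1.79), the pyruvate dehydrogenase kinase *PDK1* (1.75), the glucose transporter *SLC2A3* (1.46), the mTORC1 inhibitor *DDIT4* (1.45), the adenylate kinase *AK4* (1.37) and the glycolytic enzyme *PGK1* (1.36). Their limma adjusted p ran from 0.00444 (*BNIP3*) to 0.0494 (*P4HA1*), and their standard errors from 0.14 (*PGK1*) to 0.32 (*P4HA1*). *PFKFB4* had means of 5.07 ± 1.97 and 31.4 ± 6.21 TPM and *PGK1* of 334 ± 29.4 and 862 ± 97.9 TPM (SD, n = 3 each). *BNIP3* was at 108.33, 97.93 and 100.68 TPM in the control libraries, against 493.87, 439.25 and 348.70 TPM in the knockdown libraries. *EGLN1*, the expressed target among the hydroxylases, lay just below the middle of this list with its log2 fold change of 0.75. Some other well-known targets, chosen after their values were seen, did not pass the threshold. *CA9* was listed at 0 in every library, and *ADM* had a log2 fold change of −0.56 with 301 TPM in control replicate 3 against 68.1 to 87.4 TPM in the other 5 libraries. The number called was 1 without control replicate 2, 1 without knockdown replicate 1, 1 without knockdown replicate 2 and 2 without knockdown replicate 3.

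**Figure D5:**
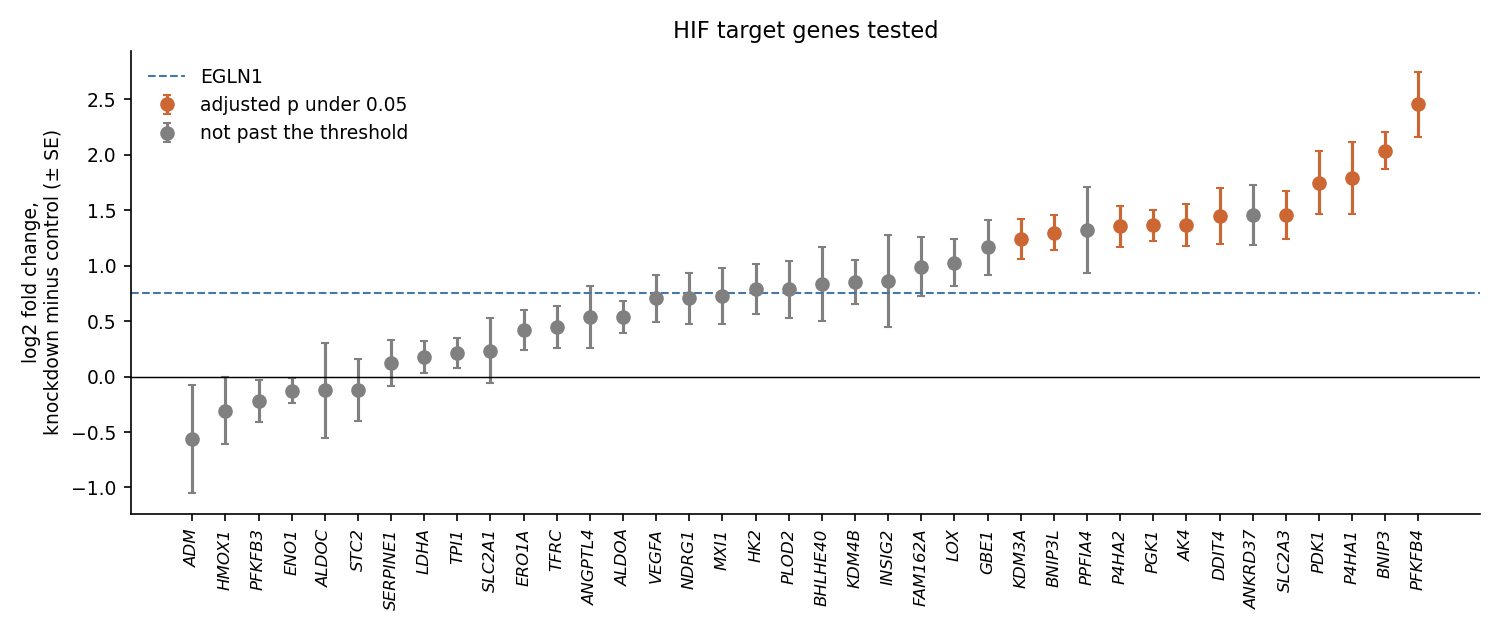
The log2 fold change (knockdown minus control, vertical axis) ± SE of the 38 HIF target genes tested, in order of size, with the 11 called genes in orange and the log2 fold change of *EGLN1* (0.75) as a dashed line. The largest was *PFKFB4* at 2.46 and the lowest *ADM* at −0.56.

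For the tested members whose log2(TPM + 1) spanned at least 1 over the 6 libraries, the genes with the most similar profile were sought by the root mean square difference of centred log2 values. The nearest to *HIF1A* were *HSPA13* (0.031), the lncRNA gene ENSG00000261799 (0.033) and *RSL24D1* (0.036), and 505 tested genes lay within 0.15 of it. Their GC contents, from 35.9% to 39.8%, were close to that of *HIF1A*. Nearest to *EGLN2* were *ZGPAT* (0.056), *PSMG4* (0.061) and *NUDT1* (0.063), with 161 genes within 0.15. Their GC contents ran from 52.3% to 64.0%, against 60.8% for *EGLN2*. For *EGLN1* the nearest were *MASP2* (0.064), *CREBRF* (0.067) and *LINC02454* (0.080), with 61 genes within 0.15. Their GC contents ran from 39.7% to 51.9%, against 41.6% for *EGLN1*. *ARNT2* had fewer near profiles, with 24 genes within 0.15, and its nearest were *SLIT3* (0.099), *TRIM16* (0.104) and *MYH10* (0.112). Their GC contents ran from 48.0% to 54.5%, against 52.8% for *ARNT2*. The differences are given over 6 libraries whose values also move with GC content, each with its own trend, and the part of GC content in them was not tested.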

How the data were processed

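RNA–Seq of 6 SK-Hep1 libraries, 3 per group by their titles, was analysed. The authors trimmed reads with fastp, aligned them, counted them per gene with RSEM and deposited TPM for 62700 genes. Their methods name STAR and GENCODE Release 45 as aligner and annotation, whereas the submitters' processing notes name HISAT2 2.0.5 and hg38. All gene identifiers matched GENCODE release 44, which gave symbols, positions and GC content. TPM hold no read number, so depth is unknown and precision rests on 3 libraries per group. The rule for the members uses no measured value, but both members and lists were chosen with earlier results of these data known. Values were fitted as log2(TPM + 1) with limma 3.58.1 in R 4.3.3 (lmFit, eBayes with trend, two-sided, no replicate block) for 14020 genes averaging 1 TPM or more, with Benjamini–Hochberg adjustment. The fit was tested on simulated data whose noise was independent between genes, so that test does not cover the GC trends. The GC trend of each library was removed with loess (span 0.3). Promoters came from RefSeq (GRCh38.p14), with entries for 8 of 10 members. By rule, the named genes were the members, *RAB30-DT*, called genes of the pathway lists, the 8 called target genes with the largest changes, the 3 nearest profiles per member and overlapping genes. Further genes of the lists and the markers were named outside this rule, after their values were seen. Alternatives were other pseudocounts (0.1, 5), filters, scalings and variance models, arrayWeights, a replicate block, GC trends removed, and each library left out.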

Additional observations from a re-analysis of the deposited data

How the results depend on the processing

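No member was called in the main fit or in any fit that left out a library, and depth is unknown from TPM. With arrayWeights, 5 of the 8 tested members passed the threshold. That fit gave control replicate 2 and knockdown replicate 2 weights of 3.00 and 4.39, against 0.32 to 0.95 for the other libraries. Its calls thus rest mostly on 1 library per group. In the same fit 3218 of the 14020 tested genes passed it. The log2 fold changes of the 5 were 0.51 (*EPAS1*), −0.73 (*ARNT*), 0.86 (*EGLN1*), −0.65 (*EGLN2*) and 0.39 (*HIF1AN*). With the GC trend removed 2 members did, −0.62 (*ARNT*) and 0.73 (*EGLN1*), beside 1389 genes in all. The same 2 did with a replicate block added (−0.62 and 0.73), beside 1069 genes in all. *VHL* changed sign without knockdown replicate 1, in a range of −0.014 to 0.22. With the replicate block alone, *EGLN1* passed (0.75), and 1 member, 861 genes in all and 19 HIF target genes were called. Deviations of same-numbered libraries correlated at 0.41, 0.036 and 0.28, and 4 of 6 libraries correlated best with their own number. With the GC trend removed, these correlations were 0.17, 0.013 and 0.11. The main fit has no block because no label says that a number marks a shared culture. Whether the numbers mark pairs is not known. All other log2 fold changes of members kept their direction and side of the threshold. Against 146 genes in all and 11 HIF target genes, there were 13 and 1 without a filter, 3218 and 26 with arrayWeights, 1389 and 20 with the GC trend removed, and 1069 and 18 with both GC and block. Leaving out 1 library gave 12 to 489 genes and 1 to 14 target genes. The fits with arrayWeights, the block, the GC trend removed and both together called 3218, 861, 1389 and 1069 of the 14020 tested genes. In that order, and against 0 in the main fit, they called 4, 1, 2 and 2 of the 17 VHL ligase partners. They called 5, 2, 2 and 2 of the 16 cofactors, and 1 each of the 8 tested bHLH-PAS factors. For the 17 enzymes of 2-oxoglutarate, succinate and fumarate, arrayWeights and the GC trend removed called 1 each. The cause was not tested.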
